A study of Mus musculus with 6 samples.

Results

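Cdkn1b, Dhh and Ptges are 3 genes that granulosa cells, the somatic cells around the oocyte, use to control division, to signal to neighbouring cells and to make prostaglandin. They were chosen as all probes whose annotation named cyclin-dependent kinase inhibitor 1B (P27), desert hedgehog or prostaglandin E synthase, which gave 3 of 8272 probes, 1 for each gene. They were chosen by their measured log2 ratios of day 4 over day 0, so that these values are given as a description, with no test. RNA from ovaries of C57Bl/6J mice at day 2 or day 4 after birth was labelled with Cy5. It was hybridised against ovary RNA of the same strain from pups within a day of birth (day 0), labelled with Cy3. The arrays were 2-colour spotted cDNA arrays, 3 for each later age, each with a later RNA of its own. The labels name no genetic change or treatment, and how many animals gave each RNA is not stated in the sources used here. The series text asks which mRNAs change while follicles assemble and begin to grow, which it places from day 2 on in this strain.

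Each value is a log2 ratio of the later day over day 0, so that 0 is the level of day 0 RNA on the same array and 1 is a doubling. The mean of 4 repeat values was taken per array. Values were present for 8272 probes on each day 2 array and for 7775, 8272 and 5630 probes on day 4 arrays 1, 2 and 3. How precise a mean is depends on the few arrays behind it. The dyes were never swapped, so that a dye bias of a single gene and its change since day 0 cannot be told apart. Across 8272 probes, the log2 ratios of day 2 arrays 1 and 2 correlated at r −0.675, although their labels state the same dyes and conditions. The direction of day 2 values is therefore not settled, and each day 2 mean of the 3 genes is repeated with array 1 or array 2 reversed in sign. Array 3 of both ages used the same day 0 RNA. In a whole ovary, fewer cells of a type and less RNA per cell cannot be told apart.

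The protein of Cdkn1b, p27, binds complexes of cyclins with their kinases and holds cells back from entering S phase. In the ovary it is known for restraining the assembly and growth of primordial follicles. Dhh is a secreted ligand of the hedgehog pathway, which granulosa cells send to the stromal cells that become theca. There the receptor Ptch1 releases Smo, which activates the Gli transcription factors. Ptges converts the unstable product of the cyclooxygenases into prostaglandin E, which acts through the receptors Ptger1 to Ptger4 and is known in granulosa and cumulus cells around ovulation.

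The 3 promoters are shown because the log2 ratios of the 3 genes had the same sign at day 4. Each is the 250 bases before the RefSeq start site in build GRCm38.p6, read 5′ to 3′ on the strand of the gene. They lie at chr6:134920151-134920400 on the + strand for Cdkn1b, at chr15:98898541-98898790 on the − strand for Dhh and at chr2:30903298-30903547 on the − strand for Ptges. Capitals mark the letters GGGCGG of a GC box and CCAAT of a CCAAT box, searched on both strands. A GC box on the opposite strand reads CCGCCC, and no match overlapped another.
Cdkn1b: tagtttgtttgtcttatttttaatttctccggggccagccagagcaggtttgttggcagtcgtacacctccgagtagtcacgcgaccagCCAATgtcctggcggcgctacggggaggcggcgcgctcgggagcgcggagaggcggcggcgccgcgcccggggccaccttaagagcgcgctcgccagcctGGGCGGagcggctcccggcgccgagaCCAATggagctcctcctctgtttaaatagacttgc
Dhh: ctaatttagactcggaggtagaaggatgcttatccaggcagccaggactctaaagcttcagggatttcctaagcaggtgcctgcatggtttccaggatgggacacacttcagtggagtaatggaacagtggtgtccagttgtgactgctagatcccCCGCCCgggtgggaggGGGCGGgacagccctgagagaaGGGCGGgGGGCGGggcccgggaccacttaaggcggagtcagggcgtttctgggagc
Ptges: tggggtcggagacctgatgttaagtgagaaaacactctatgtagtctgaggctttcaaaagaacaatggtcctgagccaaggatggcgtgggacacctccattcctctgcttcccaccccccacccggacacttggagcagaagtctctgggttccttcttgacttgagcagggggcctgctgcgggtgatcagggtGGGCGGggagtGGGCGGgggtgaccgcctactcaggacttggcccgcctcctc

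All 3 windows held a GC box, 1 in Cdkn1b, 4 in Dhh and 2 in Ptges, as did 32.7% of 32851 promoters of the same length. In Cdkn1b it began 61 bases before the start site, in Ptges the pair began 53 and 42 bases before it, and in Dhh the 4 began between 94 and 49 bases before it, 1 of them on the opposite strand. Only the Cdkn1b window held CCAAT boxes, which began 161 and 35 bases before the start site, and 33.8% of all promoters had at least 1. GTAAACA, a forkhead motif, was found in 0 of the 3 windows and in 3.17% of all promoters. AAGGTCA, a motif of the Nr5a receptors, was found in 0 of 3 and in 4.08%, and AGATAA, which GATA factors bind, in 0 of 3 and in 9.99%. The Cdkn1b window was the richest of the 3 in CpG, with 28, more than 92.4% of all promoters. Dhh had 9 and Ptges 8, beside a median of 6 over all promoters. The matches describe letters only and were not tied to the array values.

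Cdkn1b mRNA had a log2 ratio above 0 on every array that measured it, though near 0 on day 2 array 2. With the signs as deposited, its ratios were higher at day 4 than at day 2. The log2 ratio was 0.88 on day 4 array 1 and 0.62 on day 4 array 2, and the probe had no value on day 4 array 3, where it was among 2640 marked probes with no value. At day 2 it was 0.27, 0.05 and 0.51 on arrays 1, 2 and 3. Both day 4 values were above all 3 day 2 values, with a gap of 0.11 between the nearest pair, so that the ages did not overlap. The mean at day 4 was 0.75 ± 0.18 (log2, SD, n = 2), which is 1.68-fold, and at day 2 it was 0.28 ± 0.23 (SD, n = 3), which is 1.21-fold. With array 1 or array 2 reversed in sign, the day 2 mean was 0.10 or 0.24, and without day 2 array 3 it was 0.16.

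The 4 repeats within an array show how firmly each of these Cdkn1b values was read. On day 4 array 1 they ran from 0.81 to 0.94, with an SD of 0.060, below the median SD of 0.142 over all probes of that array. On day 4 array 2 they ran from 0.50 to 0.77. Day 2 array 2 was the loose one, with repeats of −0.41, 0.46, 0.08 and 0.08 and an SD of 0.354. All 4 repeats were positive on each other array. The probe was of middling brightness, with 42.5% of all probes dimmer in the mean over the arrays, and brightness of a probe is not a level of its mRNA.

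Dhh mRNA was near the day 0 level at day 2 and above it on all 3 day 4 arrays, by less than Cdkn1b or Ptges. The log2 ratio was 0.31, 0.53 and 0.41 on day 4 arrays 1, 2 and 3. At day 2 it was 0.12, 0.16 and −0.07. The lowest day 4 array stood 0.14 above the highest day 2 array, so that the ages did not overlap. The mean was 0.42 ± 0.11 (log2, SD, n = 3) at day 4, which is 1.33-fold, and 0.07 ± 0.12 (SD, n = 3) at day 2, which is 1.05-fold. The day 2 mean became −0.01 or −0.04 with array 1 or array 2 reversed in sign, and was 0.14 without array 3. Leaving out both arrays that used the common day 0 RNA gave a day 4 mean of 0.42.

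Dhh was the dimmest of the 3 probes, with 11.6% of all probes dimmer in the mean over the arrays. On day 4 array 1 its repeats spread from −0.06 to 0.61, with an SD of 0.283 beside an array median of 0.142, so that its lowest day 4 value is also its least precise. On day 4 array 2 they ran from 0.35 to 0.66, and on array 3 from 0.16 to 0.51. On day 2 array 3 all 4 repeats were below 0. The deposited marks, whose meaning the headers do not define, included 1 on Dhh, on day 4 array 2.

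Ptges mRNA had the highest day 4 ratio of the 3 genes. Its log2 ratio was 1.02 on day 4 array 1 and 0.72 on day 4 array 2, and like Cdkn1b it had no value on day 4 array 3 for the same reason. At day 2 it was −0.03, 0.67 and 0.16 on arrays 1, 2 and 3. The ages did not overlap, but only 0.05 separated day 2 array 2 from day 4 array 2, while the other 2 day 2 arrays lay near 0. The mean was 0.87 ± 0.22 (log2, SD, n = 2) at day 4, which is 1.83-fold, and 0.27 ± 0.36 (SD, n = 3) at day 2, which is 1.20-fold. The day 2 mean rests on array 2: without it the mean was 0.07, and with it reversed in sign −0.18. Reversing array 1 in its place gave 0.28.

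The repeats of Ptges on day 2 array 2 were close together, at 0.69, 0.72, 0.60 and 0.66, with an SD of 0.051 beside an array median of 0.190, although the other day 2 arrays gave far lower means. On day 4 array 1 they were 1.12, 0.65, 1.05 and 1.27, and on day 4 array 2 they were 1.04, 0.80, 0.67 and 0.35. All 8 were above 0, with SDs of 0.265 and 0.290, near double the array medians. Marks were deposited for Ptges on day 2 array 2 and day 4 array 2, and with these values left out the day 4 ratio is that of array 1 alone, 1.02.

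**Figure D1:**
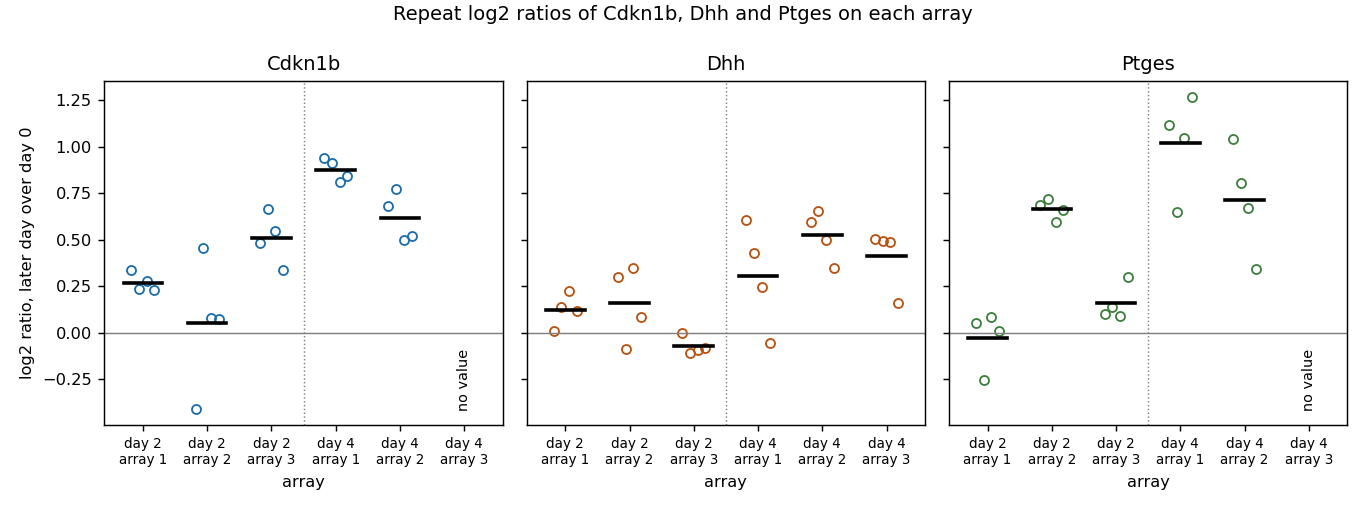
Repeat log2 ratios (open circles, 4 per array) and their mean (bar) for Cdkn1b, Dhh and Ptges on 3 day 2 and 3 day 4 arrays, each over day 0 at a log2 ratio of 0. Every measured day 4 mean lies above every day 2 mean of the same gene, and day 4 array 3 has no value for Cdkn1b or Ptges.

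Between the ages, the difference of the mean log2 ratios, day 4 over day 2, was 0.47 ± 0.22 (SE) for Cdkn1b, 0.34 ± 0.15 for Dhh and 0.60 ± 0.27 for Ptges. This indirect comparison through day 0 cancels a dye effect common to all arrays, and the ages share the day 0 RNA of array 3. With day 2 array 1 reversed in sign the differences were 0.65, 0.43 and 0.59, and with array 2 reversed they were 0.51, 0.45 and 1.05. The ages did not overlap for 3 of 3 genes, and day 4 lay above day 2. Over all 8135 probes tested, 5.32% had every day 4 array above every day 2 array, and 3.98% had the reverse. Ratios were above 0 on every day 4 array for 3 of 3 genes, where 28.4% of all probes had this. Since the genes were picked for their day 4 ratios, nothing is read from these shares. The mean ratio at day 4 was highest for Ptges, then Cdkn1b, then Dhh, with arrays from 0.72 to 1.02, from 0.62 to 0.88 and from 0.31 to 0.53. Ptges and Cdkn1b overlapped in that order, and Dhh lay below both.

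In the fit across all probes with limma, 0 of 3 genes had an adjusted p under 0.05 at day 4 over day 0, where 0.479% of 8135 probes (39, all higher) did. At day 2 over day 0 and at day 4 over day 2, 0 of 3 genes and 0 probes did (percent called 0), with 231 and 215 probes at an unadjusted p under 0.05. The count of 39 became 0 without day 4 array 1, 2 or 3 and 0 with day 2 array 2 reversed in sign. It became 71 without day 2 array 1 and 16 without day 2 array 3. In the order of mean ratios at day 4, 194 probes lay above Ptges, 251 above Cdkn1b and 748 above Dhh.

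**Figure D2:**
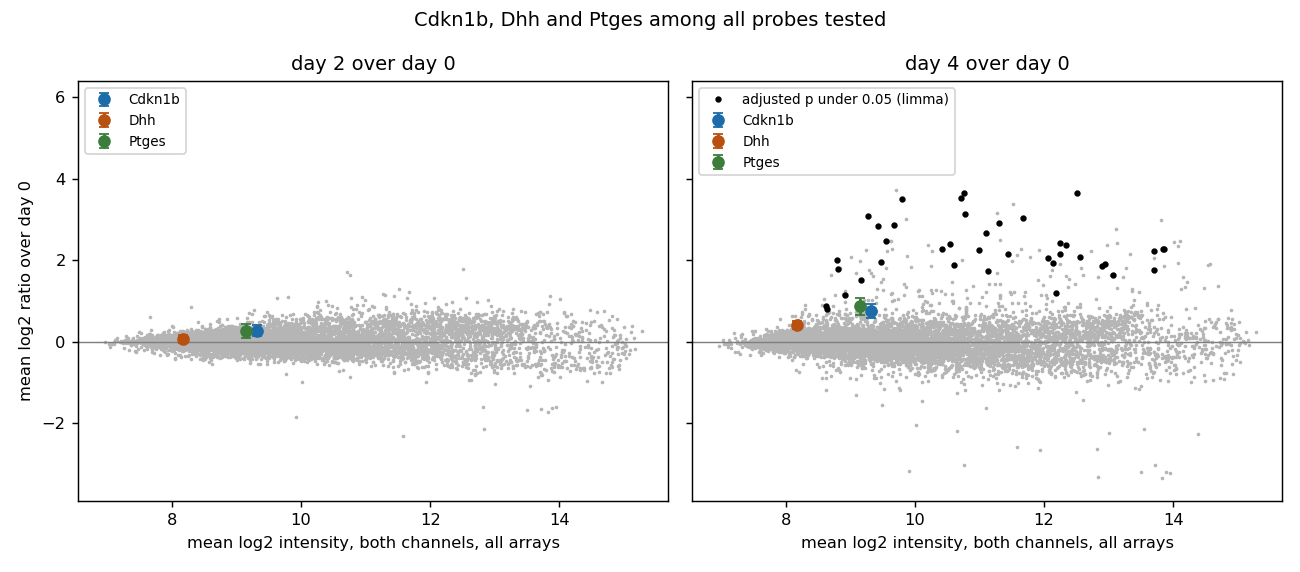
Mean log2 ratio over day 0 of 8135 tested probes (grey) against mean log2 intensity over both channels and all arrays, for day 2 (left) and day 4 (right), with Cdkn1b, Dhh and Ptges as coloured points with the SE of the limma fit. Black points are the 39 probes past an adjusted p of 0.05 at day 4, and the 3 genes lie outside them, Dhh at the dim end.

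Cdkn1b was set among 50 genes of p27 and of the control of S phase entry, of which 27 had a probe. At day 4 over day 0, 0 of 27 passed the limma test in either direction (0.479% of all probes did), 9 ratios were positive and 18 negative, and the median log2 ratio was −0.24 beside −0.0013 over all probes. Without Cdkn1b itself, 8 of 26 were positive, 5 had an unadjusted p under 0.05, where 9.29% of all 8135 probes did (756), and the median was −0.26. With the median over all probes of each gene, the 27 gave 10 positive ratios and a median of −0.10. Cdkn1b had the highest ratio of the 27, but it was picked for this ratio, so that nothing is read from its rank.

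The D cyclins, which start the cell cycle and also bind p27, did not share 1 direction. Ccnd3 was −0.72, −1.37 and −0.67 on day 4 arrays 1, 2 and 3 and −0.10, 0.07 and −0.52 at day 2. All 3 day 4 values were below all 3 day 2 values, with a mean of −0.92 ± 0.19 (log2, SE, n = 3, limma adjusted p = 0.156) at day 4. Ccnd1 was 0.35, 0.41 and 0.53 at day 4 and 0.08, −0.03 and 0.20 at day 2, and here all day 4 values were the higher ones (0.43 ± 0.10, SE, n = 3, limma adjusted p = 0.221). Ccnd2 ran from −0.90 to 0.73 at day 4 and gave no clear sign, with a mean of −0.10 ± 0.52. Neither Ccnd3 nor Ccnd1 passed the test over all probes.

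Cdkn2b, another inhibitor of cyclin-dependent kinases, was −0.62, −0.57 and −1.94 on the day 4 arrays (−1.04 ± 0.36, SE, n = 3, limma adjusted p = 0.441), the lowest mean of the list and opposite in sign to Cdkn1b. Its second probe gave −0.58. Cops2, a subunit of the COP9 signalosome, was −0.54, −0.13 and −1.32 (−0.66 ± 0.23, SE, n = 3, limma adjusted p = 0.423), and its second probe gave −0.11. Both genes were lowest on array 3, where Cdkn1b has no value. Ccne1 and Ccne2, cyclins of S phase entry, had day 4 means of −0.30 ± 0.19 and −0.35 ± 0.31, and cyclin A2 (Ccna2) of −0.05 ± 0.27. Of the forkhead factors that can switch on Cdkn1b, Foxo1 was 0.75, 0.27 and 0.72 on the day 4 arrays (0.58 ± 0.29, SE, n = 3, limma adjusted p = 0.622). At day 2 Foxo1 was −0.48, 1.05 and 0.26, so that the ages overlapped. Foxo3 was −0.23 and −0.38 on the 2 day 4 arrays that measured it (−0.31 ± 0.13, SE, limma adjusted p = 0.598). Its day 2 values were −0.09, −0.24 and −0.26, which overlapped those of day 4 too.

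Dhh was the only hedgehog ligand matched by name, and 8 of 44 genes on the hedgehog list had a probe. The receptor Ptch1, its partner Smo and the Gli factors were not among those matched by name, and they are not analysed here. At day 4 over day 0, 0 of 8 passed the limma test in either direction (0.479% of all probes did), 2 ratios were positive and 6 negative, and the median was −0.20. Without Dhh, 1 of 7 was positive, 1 had an unadjusted p under 0.05 (9.29% of all probes did) and the median was −0.23. These signs depend on the probe: with the median over all probes of each gene, 4 of 8 were positive and 4 negative, with a median of 0.02, because Cul1 and Csnk1a1 became positive. Stk36, a kinase related to fused of the fly pathway, was the other positive gene by its brightest probe, at 1.20 and 0.81 on day 4 arrays 1 and 2 (1.00 ± 0.47, SE, n = 2, limma adjusted p = 0.62). Its day 2 arrays ran from −0.56 to 1.41, so that they spanned both day 4 values.

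The remaining hedgehog genes act mostly on the turnover or trafficking of pathway proteins. Btrc, the F-box protein that marks Gli factors for processing, was −0.56 and −0.54 on day 4 arrays 1 and 2 and −0.10, 0.36 and −0.01 at day 2 (day 4 mean −0.55 ± 0.16, SE, n = 2, limma adjusted p = 0.391). Its day 4 values were below all day 2 values, and a second, dimmer probe gave −0.25. Rab23, a GTPase that restrains the pathway, was −0.32 and −0.25 at day 4 (−0.29 ± 0.13, SE, n = 2, limma adjusted p = 0.611). Cul1, the scaffold of the ligase that holds Btrc, was −0.32 and −0.25 (−0.28 ± 0.13, SE, n = 2, limma adjusted p = 0.626), but 2 other probes of Cul1 gave 0.47 and 0.37, so that its sign depends on the probe. Gpc3, a cell surface proteoglycan that binds hedgehog ligands, had a day 4 mean of −0.23 ± 0.59, and Lrp2, a large endocytic receptor, of −0.07 ± 0.11. Csnk1a1, a kinase that phosphorylates Smo and Gli factors, had −0.18 ± 0.33 by its brightest probe and 0.38 by its other probe.

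Ptges was set among 48 genes of prostaglandin synthesis and response, of which 13 had a probe. Neither cyclooxygenase gene was matched by name, and their mRNAs are not analysed here. At day 4 over day 0, 0 of 13 passed the limma test in either direction (0.479% of all probes did), 6 ratios were positive and 7 negative, and the median was −0.14. Without Ptges, 5 of 12 were positive, 3 had an unadjusted p under 0.05 (9.29% of all probes did) and the median was −0.17. Ptges had the highest ratio of the 13, and as it was picked for this ratio, nothing is read from its rank.

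The other prostaglandin E synthases stood nearer to 0. Ptges2 was 0.19 and 0.03 on day 4 arrays 1 and 2 (0.11 ± 0.13, SE, n = 2), below both values of Ptges. Ptges3, the cytosolic synthase and a co-chaperone, was 0.66, 0.62 and −0.20 (0.36 ± 0.49, SE, n = 3), and its day 2 arrays lay on both sides of 0, up to 1.73. Ptger4, a receptor of prostaglandin E, was 0.31, 0.25 and 0.20 on the day 4 arrays and 0.05, 0.35 and −0.16 at day 2, so that the ages overlapped (day 4 mean 0.25 ± 0.13, SE, n = 3, limma adjusted p = 0.63).

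The 3 lowest ratios on this list belonged to enzymes that make, inactivate or conjugate lipid mediators and other molecules. Gstm2, a glutathione transferase, was −0.94 and −1.49 on day 4 arrays 1 and 2 and −0.37, −0.24 and −0.42 at day 2 (day 4 mean −1.22 ± 0.18, SE, n = 2, limma adjusted p = 0.0952). Lta4h, which makes a leukotriene, was −0.62, −0.59 and −0.66 at day 4, close together and below 0.00, −0.47 and −0.37 at day 2 (−0.62 ± 0.12, SE, n = 3, limma adjusted p = 0.147). Ptgr1, a reductase that inactivates prostaglandins and leukotrienes, was −0.53, −0.67 and −1.27 at day 4 and 0.12, −0.85 and −0.64 at day 2 (day 4 mean −0.82 ± 0.23, SE, n = 3, limma adjusted p = 0.311), with −0.46 from its second probe. None of these 3 passed the test over all probes, and for Ptgr1 the ages overlapped.

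**Figure D3:**
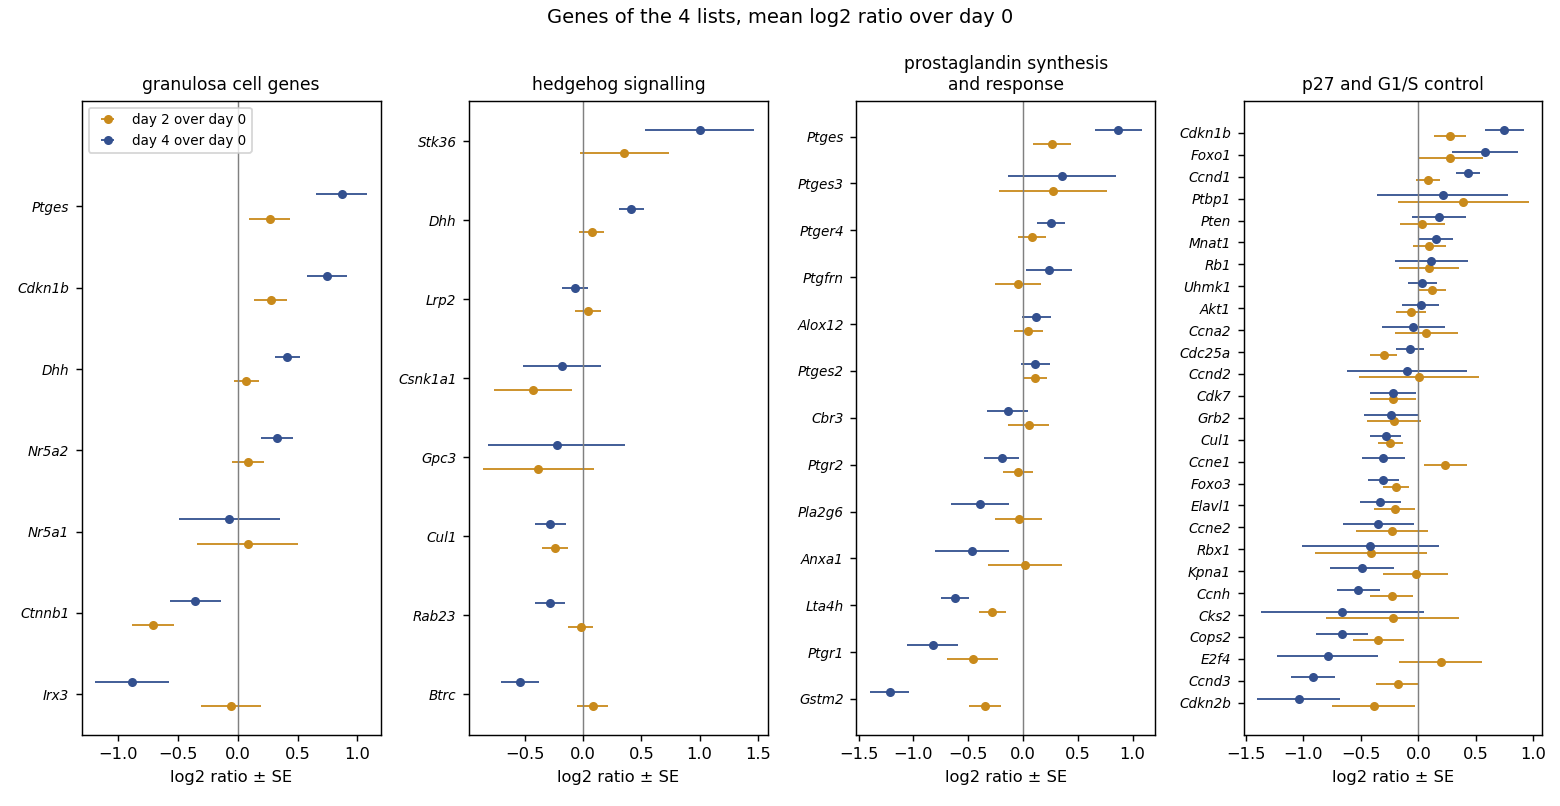
Mean log2 ratio over day 0 with the SE of the limma fit for the measured genes of 4 lists, by the brightest probe of each gene, day 2 in ochre and day 4 in blue, ordered by the day 4 value. Cdkn1b and Ptges stand at the top of the lists of p27 and of prostaglandin genes, Dhh stands below Stk36 in the hedgehog list, and 0 of the genes shown passed an adjusted p of 0.05. Cdkn1b, Dhh and Ptges were picked for their day 4 ratios, so that nothing is read from their ranks.

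Of 34 genes on a list of granulosa cell genes, 7 had a probe, Cdkn1b, Dhh and Ptges among them. At day 4, 0 of 7 passed the limma test in either direction (0.479% of all probes did). Defining genes such as Foxl2, Amh and Fshr were not among those matched by name. A ratio also gives no absolute level, so that the granulosa label of the 3 genes could not be checked against cell markers in these data. All 7 gave 4 positive and 3 negative ratios at day 4, with a median of 0.33 (0.21 with the median over all probes of each gene), and the 4 genes other than Cdkn1b, Dhh and Ptges gave 1 positive and 3 negative ratios, with a median of −0.21. The positive one was Nr5a2, a nuclear receptor of granulosa cells, at 0.46, 0.52 and 0.01 on the day 4 arrays (0.33 ± 0.13, SE, n = 3, limma adjusted p = 0.528), with 0.09 from its second probe. Irx3, a homeobox factor of pregranulosa and granulosa cells, was −0.65 and −1.11 on day 4 arrays 1 and 2 and 0.45, −0.71 and 0.09 at day 2, so that the ages overlapped (day 4 mean −0.88 ± 0.31, SE, n = 2, limma adjusted p = 0.483). Ctnnb1, the beta-catenin of cell junctions and Wnt signalling, was −0.31 and −0.40 on day 4 arrays 2 and 3. At day 2 it was −1.14, −0.37 and −0.62, so that the ages overlapped. The day 4 mean was −0.36 ± 0.21 (SE, n = 2, limma adjusted p = 0.702). With the signs as deposited, the day 2 mean was the lower (−0.71 ± 0.17, SE, n = 3). That mean is not repeated here with a sign reversed. Reversing day 2 array 1 would turn its −1.14 positive, so that the order of the ages is not settled for Ctnnb1. Nr5a1, a regulator of steroid synthesis genes, was −0.13, −0.52 and 0.43 on the day 4 arrays, spanning 0 (−0.07 ± 0.42, SE, n = 3, limma adjusted p = 0.969).

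Markers of other cells of the ovary were measured on the same arrays. Their lists were chosen with earlier results of these data known, so that the signs below are a description and not independent evidence. Of 36 oocyte genes, 17 had a probe, and all 17 ratios were positive at day 4. They ran from 0.55 to 3.64 with a median of 1.26, beside −0.0013 over all probes. Of the 17, 4 passed the limma test, where 0.479% of all probes did. The median of the oocyte list was 0.92, 1.13 and 2.33 on day 4 arrays 1, 2 and 3, over 16, 17 and 13 genes with a value. These medians cover different genes, so that nothing is read from their order. On day 2 arrays 1, 2 and 3 the median was −0.03, 0.62 and 0.67, over 17 genes each. Of the stroma and smooth muscle list, 6 of 6 measured genes were positive at day 4 (median 0.47), as were 5 of 5 of the theca and steroid list (median 0.13), while 6 of 7 erythroid genes were negative (median −0.87). The endothelial list had 4 of 5 negative (median −0.44), the surface epithelium list 4 of 5 (−0.34), the oviduct epithelium list 3 of 5 (−0.28), the leukocyte list 2 of 3 (−0.20), the glial list 2 of 2 (−0.15) and the meiotic germ cell list 1 of 2 (−0.03), and 0 genes of these lists passed. Both epithelium lists held Krt8, Krt18 and Cdh1, so that their counts are not separate readings. On day 2 arrays 1, 2 and 3, Cdkn1b was at 0.27, 0.05 and 0.51, Dhh at 0.12, 0.16 and −0.07 and Ptges at −0.03, 0.67 and 0.16. The part that cell makeup has in the ratios of the 3 genes was not tested.

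The genes whose ratios came nearest to each of the 3 were found by the root mean square difference in log2 ratio over the arrays that measured the gene. For Cdkn1b (5 arrays, 2855 named probes compared, median difference 0.70), the nearest were chemokine (C-X-C motif) ligand 1 at 0.17, pantothenate kinase 3 at 0.18, the gamma 3 subunit of G proteins at 0.20, Tpm1 at 0.22 and prostein at 0.23. For Dhh (6 arrays, 1941 named probes, median 0.53), they were Zfp296 at 0.10, adenylate cyclase 7 and guanine deaminase at 0.11 each, and ring finger protein 33 and tumor protein D52 at 0.13 each. For Ptges (5 arrays, 2855 named probes, median 0.77), they were replication protein A1 at 0.11, checkpoint suppressor 1 at 0.12, Tcl1 at 0.13, and trichorhinophalangeal syndrome I and Slc21a11 at 0.14 each. Between the 3 genes the differences were 0.37 for Cdkn1b and Dhh, 0.35 for Cdkn1b and Ptges and 0.42 for Dhh and Ptges. These were larger than those of the nearest genes but below the medians over the named probes compared. The nearest genes were picked as the smallest differences of many, so that nothing is read from the larger ones. The points share their arrays and day 0 RNAs.

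Among those neighbours, Tpm1 is on the stroma and smooth muscle list and Tcl1 on the oocyte list. Tcl1, which codes for a coactivator of Akt kinases in oocytes and early embryos, was at −0.21, 0.62 and 0.05 on the day 2 arrays and 1.08 and 0.91 on day 4 arrays 1 and 2. On day 4 array 3, where Ptges has no value, Tcl1 was at 1.80, while replication protein A1 was at 0.06 and checkpoint suppressor 1 at 0.24. Genes that lay within 0.14 of Ptges over 5 arrays thus differed widely on the array it lacks.

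**Figure D4:**
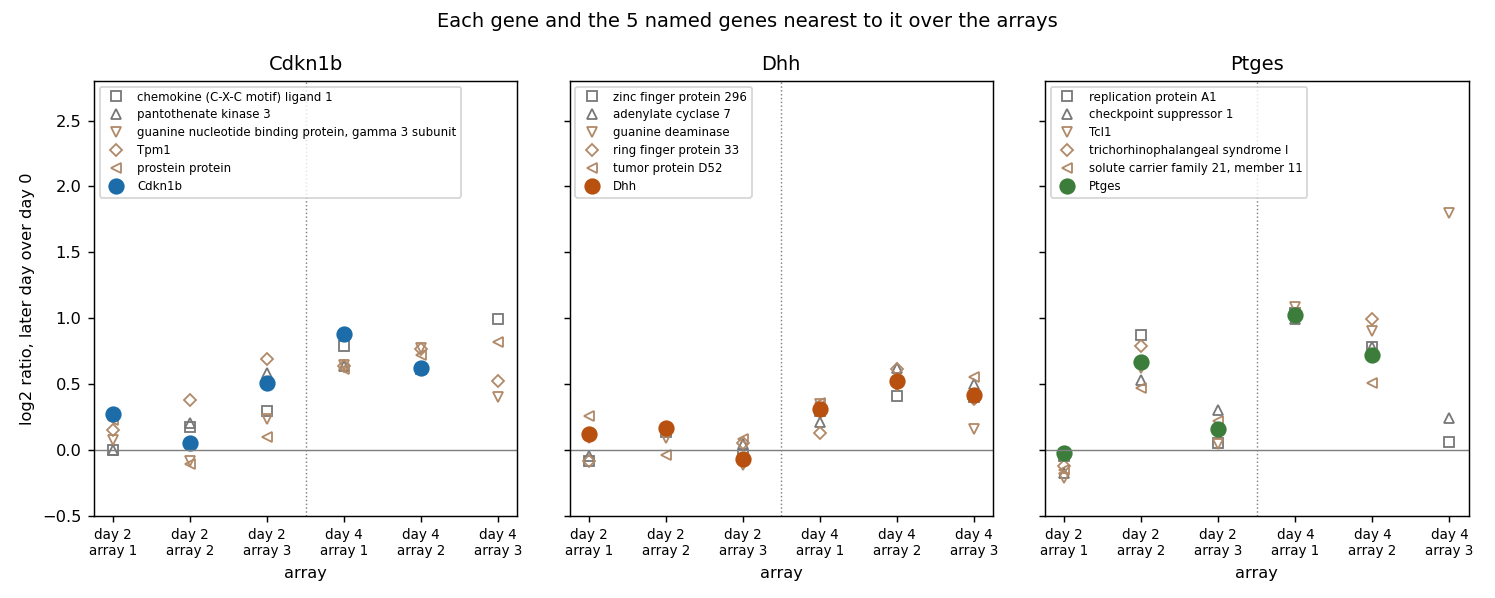
Log2 ratio over day 0 on each array for Cdkn1b, Dhh and Ptges (filled) and the 5 named genes nearest to each by root mean square difference (open), for 3 day 2 and 3 day 4 arrays. The 3 neighbours of Ptges measured on day 4 array 3, where it has no value, spread from 0.06 to 1.80.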

How the data were processed

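Ovary RNA of later days (Cy5) and of day 0 (Cy3) was measured on 6 arrays, 3 per age. The authors deposited, per the file headers, 4 repeat log2 ratios per probe and array, a mean log2 intensity and marks that the headers do not define. Per the submitters' processing notes they used R 1.7.1. How background was corrected and ratios normalized is not stated in the sources used here. The median log2 ratio of each array was near 0.

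The mean of the 4 repeats was taken with no further normalization. Probes with values on at least 2 arrays of each age (8135 of 8272) were fitted in R 4.3.3 by limma 3.58.1 as a mean for each age over all 6 arrays, without trend or robust variances. All probes entered the Benjamini-Hochberg adjustment of the 2-sided p-values, with 0.05 as the threshold. SE is that of the fit, which pools the spread of both ages, and SD is over arrays.

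The 3 genes and the 14 gene lists were chosen with earlier results of these data known. Probes were matched to list genes by the RefSeq gene table, which served for names only, with 122 probes placed by 98 hand-written names and 8 by clone names. The brightest probe stood for a gene. Named genes were the 3 genes, any measured gene of the 4 lists on granulosa cells, hedgehog, p27 and prostaglandins, with full values for the 4 with the smallest unadjusted p at day 4 outside the 3, and the 5 nearest named genes of each. Promoter sequences came from RefSeq, build GRCm38.p6. The code was tested on simulated data. Alternatives were other normalizations, filters on marks, brightness and arrays, the deposited means, the median of the repeats, other variance models, the replicate block, turned day 2 signs and each array left out.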

Additional observations from a re-analysis of the deposited data

How the results depend on the processing

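The log2 ratio of day 4 over day 0 kept its sign in 9 of 9 alternatives run for each of Cdkn1b (0.62 to 0.92), Dhh (0.36 to 0.47) and Ptges (0.72 to 1.07). Not all of these could move a value. Without array 3 of both ages, Cdkn1b and Ptges stayed at 0.75 and 0.87, since they had no value on day 4 array 3. Without day 4 array 1 or 2, each of these 2 genes rests on a single day 4 array. The genes were picked for this ratio, so that its sign is a description. Dhh had no value with probes below the 0.25 quantile of brightness left out. At day 2 over day 0, Cdkn1b was positive in 12 of 12 (0.10 to 0.39), Dhh in 9 of 11 (−0.04 to 0.14) and Ptges in 11 of 12 (−0.18 to 0.41). With the sign of day 2 array 2 turned, Ptges was −0.18 at day 2 and 1.05 at day 4 over day 2. The 39 probes called at day 4 became 166 with only day 4 arrays fitted (133 higher), 96 with scale normalization (87 higher, 9 lower), 126 with trend and robust variances (117 higher, 9 lower), 0 with the sign of day 2 array 2 turned (897 at an unadjusted p under 0.05) and 0 without array 3 of both ages (433). Leaving out 1 array in turn gave 0 to 71: 0 without day 4 array 1, 2 or 3 (339, 380 and 588 unadjusted), 71, 57 and 16 without day 2 array 1, 2 or 3. At day 4 over day 2, trend and robust variances called 1 probe by limma. The counts of list genes called stayed 0 with the median over all probes of a gene, the 1 alternative run for them. The main fit did not pair arrays by replicate number, although array 3 of both ages shared a day 0 RNA. Deviations of arrays of 1 number correlated at 0.365, 0.053 and 0.515 for arrays 1, 2 and 3 (5270 probes). For day 2 arrays 1 and 3 the day 4 array of the same number was the nearest. Day 2 array 2 was nearer to day 4 array 3 (0.082) than to its own number. The SEs of day 4 over day 2 take no account of this likeness. With the replicate block, 48 probes were called at day 4 over day 0 and 0 in both other comparisons. With 2 day 4 arrays for Cdkn1b and Ptges and 1 dim probe for Dhh, the number of arrays and signal over background limit all of these values.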
